A study of Mus musculus with 48 samples.

Results

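The insulin-like growth factor (IGF) genes described here were the ligand genes Igf1 and Igf2, the receptor gene Igf1r and the binding protein genes Igfbp2, Igfbp3, Igfbp4, Igfbp5, Igfbp6 and Igfbp7. These 9 of the 54752 genes of the expression matrix, of which 54723 carry a gene symbol, were chosen by name, with earlier results of the same libraries known. The known result behind the choice was the difference of Igfbp2 between cardiomyocytes of the angII+VEGFC and ctrl groups, so all members are only described in that contrast, with no test. The list sets no threshold on a value, and all 9 genes were found in the matrix.

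RNA was sequenced from cardiac and diaphragm lymphatic endothelial cells (LECs), cardiac blood endothelial cells (BECs) and cardiomyocytes, with 12 libraries for each of the 4 populations and 13 mice in all. Every mouse, controls included, was by its label a C57BL/6 animal with a Prox1-eGFP knock-in. The study's methods trace this line to C57BL/6J embryos, and in it the Prox1 locus also drives a green fluorescent reporter. Ages in the labels ran from 8 to 16 months, whereas the study's methods give the age of these mice in weeks. For 5 to 6 weeks a subcutaneous minipump delivered saline with bovine serum albumin (ctrl, 4 libraries per population), angiotensin II with the albumin (angII, 5 libraries) or angiotensin II with VEGFCc156s, a VEGFC mutant that is selective for the receptor VEGFR3 (angII+VEGFC, 3 libraries). Endothelial cells were sorted as live CD31+ CD45.2- cells, with eGFP separating LECs from BECs, whereas cardiomyocytes were pelleted from the digested heart and were not sorted.

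IGF1 and IGF2 are secreted growth factors that signal through the receptor tyrosine kinase encoded by Igf1r, which feeds the PI3K and AKT pathway. IGF binding proteins hold most of the IGF outside cells, extend its half-life and limit or direct its access to the receptor, and proteases that cleave them release the ligand. In the heart the axis is known for supporting growth and survival of cardiomyocytes, and IGFBP7 is known as a matrix and vessel protein that binds IGF only weakly.

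The authors deposited the values in TPM (a transcript's share of its library), scaled for gene length and for the library, so levels of different genes can be compared, but the values do not give the sequencing depth. Genes at 1 TPM or more numbered 12924 to 25896 per library, and the cardiomyocyte library of angII+VEGFC mouse 8 stood apart, with 19306 such genes against 13020 to 15816 in the other cardiomyocyte libraries. Prox1, the defining lymphatic gene, averaged 172 TPM in heart LECs and 234 TPM in diaphragm LECs against 3.49 TPM in heart BECs and 3.25 TPM in cardiomyocytes. The cardiomyocyte gene Myh6 averaged 2081 TPM in the cardiomyocyte libraries, where the fibroblast gene Dcn averaged 2374 TPM, so this unsorted pellet also held RNA of other cells. Endothelial libraries were sequenced as batches 1 and 2 and cardiomyocyte libraries as batch 3. In bulk samples such as these, fewer cells of a type and less RNA per cell cannot be told apart.

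On GRCm38 (GENCODE M21), Igfbp2 (ENSMUSG00000039323, chr1:72824503-72852474, + strand) and Igfbp5 (ENSMUSG00000026185, chr1:72857932-72874884, - strand) are neighbours with 5457 bp between them. Igf2 (ENSMUSG00000048583) lies at chr7:142650766-142666816 on the - strand, 72622 bp from its imprinted neighbour H19. Igfbp3 (ENSMUSG00000020427) lies at chr11:7206086-7213923 on the - strand, 3539 bp from Igfbp1, and Igfbp4 (ENSMUSG00000017493) at chr11:99041244-99054392 on the + strand. The others were Igf1 (ENSMUSG00000020053, chr10:87858265-87937042, +), Igf1r (ENSMUSG00000005533, chr7:67952827-68233668, +), Igfbp6 (ENSMUSG00000023046, chr15:102144362-102149511, +) and Igfbp7 (ENSMUSG00000036256, chr5:77349240-77408041, -). Exons of Igfbp7 overlap those of Polr2b on the opposite strand, which had a median of 24.5 TPM over the 48 libraries, and reads of the pair cannot be told apart where strand is not kept. Exons of Igf2 overlap Gm49394 and Igf2os, which reached at most 0.308 TPM and 0.495 TPM.

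Promoters of the 4 binding protein genes whose levels the results below turn on are shown from RefSeq (GRCm38.p6), each from 250 bases before to 50 bases after the start of a transcript, 5′ to 3′ on the strand of the gene. Capitals mark matches on either strand to the GC box, spelled GGGCGG, to the TATA box, spelled TATAAA, and to the box named for its letters CCAAT.

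Igfbp2, chr1:72824230-72824529 (+): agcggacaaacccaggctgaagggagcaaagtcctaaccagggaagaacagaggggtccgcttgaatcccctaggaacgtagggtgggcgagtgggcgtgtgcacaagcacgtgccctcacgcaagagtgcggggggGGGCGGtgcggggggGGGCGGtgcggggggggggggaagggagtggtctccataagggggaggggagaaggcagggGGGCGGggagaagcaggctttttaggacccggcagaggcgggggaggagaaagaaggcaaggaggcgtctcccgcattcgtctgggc

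Igfbp5, chr1:72874816-72875115 (-): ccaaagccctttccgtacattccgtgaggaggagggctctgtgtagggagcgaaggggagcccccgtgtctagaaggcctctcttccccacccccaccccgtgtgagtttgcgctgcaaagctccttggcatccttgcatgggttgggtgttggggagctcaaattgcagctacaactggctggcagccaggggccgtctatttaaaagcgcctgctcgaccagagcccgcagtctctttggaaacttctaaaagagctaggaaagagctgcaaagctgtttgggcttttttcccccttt

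Igfbp7, chr5:77407996-77408295 (-): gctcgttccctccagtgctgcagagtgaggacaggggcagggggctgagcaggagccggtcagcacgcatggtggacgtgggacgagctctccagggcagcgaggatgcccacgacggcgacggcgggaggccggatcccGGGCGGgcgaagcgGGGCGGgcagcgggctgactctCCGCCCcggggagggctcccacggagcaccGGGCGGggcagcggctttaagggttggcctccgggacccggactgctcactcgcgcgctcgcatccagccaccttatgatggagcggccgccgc

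Igfbp6, chr15:102143936-102144235 (+): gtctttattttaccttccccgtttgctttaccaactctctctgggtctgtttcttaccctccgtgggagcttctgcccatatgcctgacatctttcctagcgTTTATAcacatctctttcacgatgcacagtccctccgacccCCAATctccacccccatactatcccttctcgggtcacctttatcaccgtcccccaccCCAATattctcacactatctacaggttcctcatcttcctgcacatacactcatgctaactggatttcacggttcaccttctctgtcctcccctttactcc

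Igfbp2 has 2 promoters in the table. The one shown, the upstream one, held 3 GC boxes and 67.0% G and C, whereas the other (chr1:72825137-72825436) held none of the 3 motifs and 57.3% G and C, close to its neighbour Igfbp5 with none of them and 56.3%. The Igfbp7 window was the richest of the 4 in G and C (73.3%) and held 4 GC boxes, and the Igfbp6 window, at 49.7%, held 1 TATA box and 2 CCAAT boxes. All 9 members matched the promoter table with 13 promoters, of which 5 held a GC box, 2 a TATA box and 3 a CCAAT box. Over all 32851 promoters of the table these shares were 35.7%, 13.6% and 37.4%. A match is a description of the letters, not of a bound site.

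Of the ligands, Igf2 transcripts exceeded Igf1 transcripts in 47 of the 48 libraries. Igf2, best known as a growth factor of fetal tissue, averaged 556 ± 136 TPM in diaphragm LECs (SD, n = 12 here and for the other populations), 442 ± 184 TPM in heart BECs, 326 ± 87.5 TPM in heart LECs and 118 ± 46.9 TPM in cardiomyocytes. Igf1, the ligand that growth hormone induces in liver and that many tissues make locally, averaged 39.9 ± 17.2 TPM in cardiomyocytes, 22.9 ± 14.4 TPM in heart LECs, 14.1 ± 10.0 TPM in diaphragm LECs and 13.6 ± 8.19 TPM in heart BECs. The populations thus ran in nearly opposite orders for the ligands, although the ranges of neighbouring populations overlapped for both genes. The median ratio of Igf2 to Igf1 was 2.29 in cardiomyocytes, 18.49 for heart LECs, 34.59 for heart BECs and 53.86 in diaphragm LECs.

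**Figure D1:**
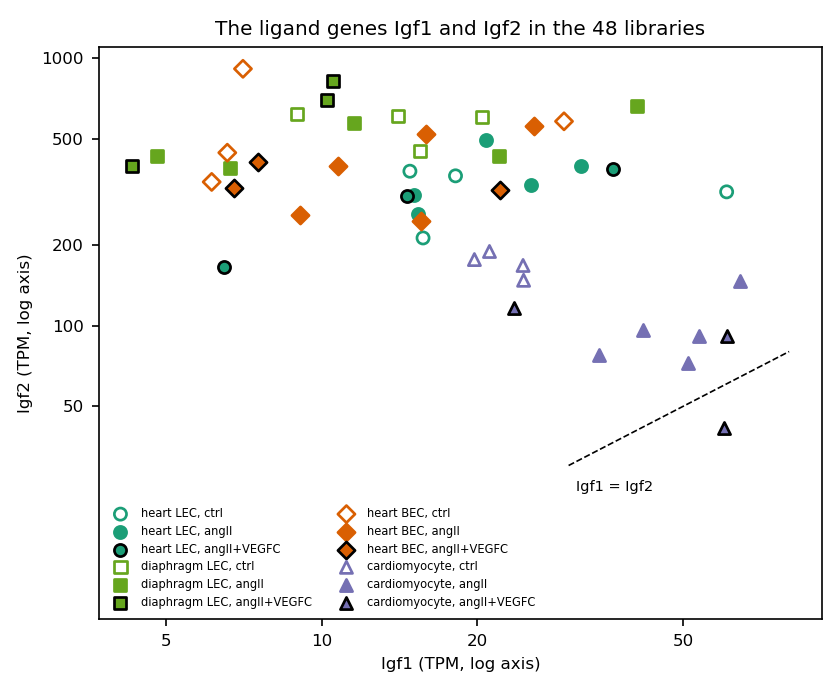
Igf1 (x axis, TPM, log scale) against Igf2 (y axis, TPM, log scale) in the 48 libraries, with 1 symbol per library, shape and colour for the population and filling or outline for the treatment, and a dashed line where the levels are equal. Cardiomyocyte libraries lie at the lower right, and 1 of them, from angII+VEGFC mouse 6, is below the line.

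Igf1r, the receptor gene, averaged 2.77 ± 1.59 TPM in cardiomyocytes, 8.99 ± 3.07 TPM in heart BECs, 9.11 ± 14.3 TPM in diaphragm LECs and 10.0 ± 5.97 TPM in heart LECs. The SD in diaphragm LECs came largely from angII mouse 4, at 52.7 TPM, and the next library was at 15.9 TPM. The level of Igf1r moved with the count of genes reaching 1 TPM in each population, with Pearson's r over the 12 libraries of 0.675 in cardiomyocytes, 0.789 in heart BECs, 0.825 for heart LECs and 0.827 for diaphragm LECs. Libraries that share a mouse or a batch enter these values, which are a description. Several, but not all, of the differences of Igf1r below are also given with gene number added to the fit.

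Binding protein transcripts differed in kind between the populations. Igfbp7 made up 87.0% of the summed TPM of the 6 binding protein genes in heart BECs, 76.5% in cardiomyocytes, 51.7% in heart LECs and 18.9% in diaphragm LECs, as mean shares of 12 libraries. Igfbp4, a binding protein that restrains IGF until it is cleaved by the protease PAPP-A, led in diaphragm LECs with 38.5%, followed by Igfbp5, which binds matrix, with 30.5%. In heart LECs these genes made up 21.8% and 21.1%. The summed level of the 6 genes was 4343 ± 833 TPM in heart BECs, 3111 ± 1499 TPM in cardiomyocytes, 2424 ± 507 TPM in heart LECs and 1650.2 ± 323 TPM in diaphragm LECs.

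**Figure D2:**
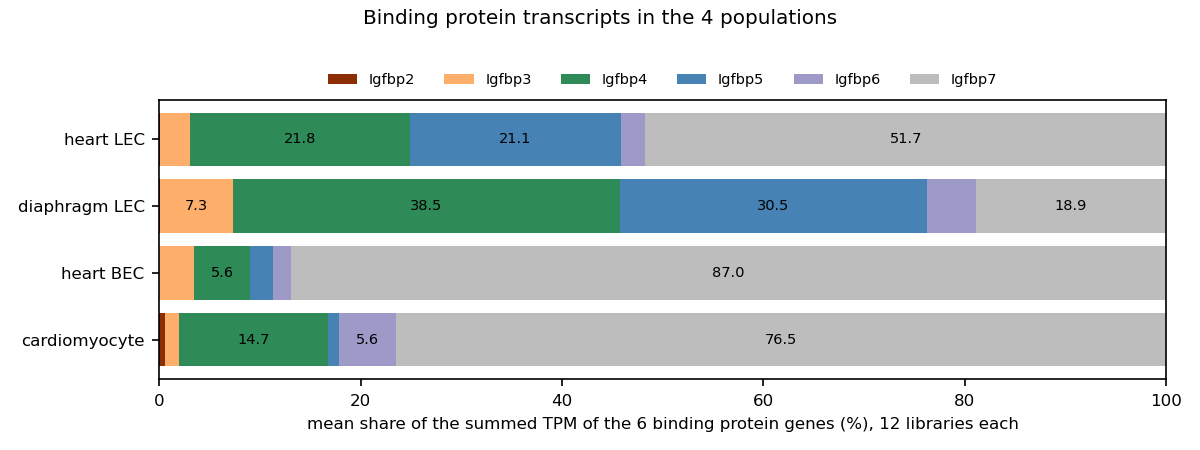
Mean share (x axis, percent of the summed TPM of Igfbp2 to Igfbp7) of each binding protein gene in the 4 populations (12 libraries each), as stacked bars with shares above 5% printed. Igfbp7 fills most of the bar of heart BECs (87.0%) and 18.9% of that of diaphragm LECs, where Igfbp4 and Igfbp5 lead.

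Igfbp7 averaged 3791 ± 818 TPM in heart BECs, 2460.0 ± 1357 TPM in cardiomyocytes, 1288 ± 561 TPM in heart LECs and 319.6 ± 186 TPM in diaphragm LECs. Igfbp5 averaged 496 ± 153 TPM in diaphragm LECs and 494 ± 212 TPM in heart LECs, against 94.0 ± 30.8 TPM in heart BECs and 28.3 ± 7.50 TPM in cardiomyocytes. Its lowest heart LEC library (182 TPM) lay above its highest heart BEC library (153 TPM), and its lowest heart BEC library (56.3 TPM) above its highest cardiomyocyte library (38.3 TPM). No other member had neighbouring populations whose ranges did not overlap.

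Igfbp4 averaged 630.4 ± 126 TPM in diaphragm LECs, 508 ± 123 TPM in heart LECs, 397 ± 103 TPM in cardiomyocytes and 234 ± 122 TPM in heart BECs. Igfbp3, the main carrier of IGF in plasma, averaged 149 ± 46.4 TPM in heart BECs, 119 ± 41.0 TPM in diaphragm LECs, 74.2 ± 42.8 TPM in heart LECs and 41.9 ± 28.4 TPM in cardiomyocytes. Igfbp6, a binding protein that prefers IGF2, averaged 166 ± 71.6 TPM in cardiomyocytes and 84.3 ± 53.9 TPM, 74.5 ± 47.9 TPM and 58.3 ± 53.5 TPM in diaphragm LECs, heart BECs and heart LECs. Igfbp2 was the member closest to 0 in endothelial cells. It was listed at 0 in 7 of 12 heart LEC libraries, 7 of 12 diaphragm LEC libraries and 3 of 12 heart BEC libraries, with at most 4.01 TPM in any of them, whereas it was above 0 in all 12 cardiomyocyte libraries (0.215 to 99.1 TPM).

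**Figure D3:**
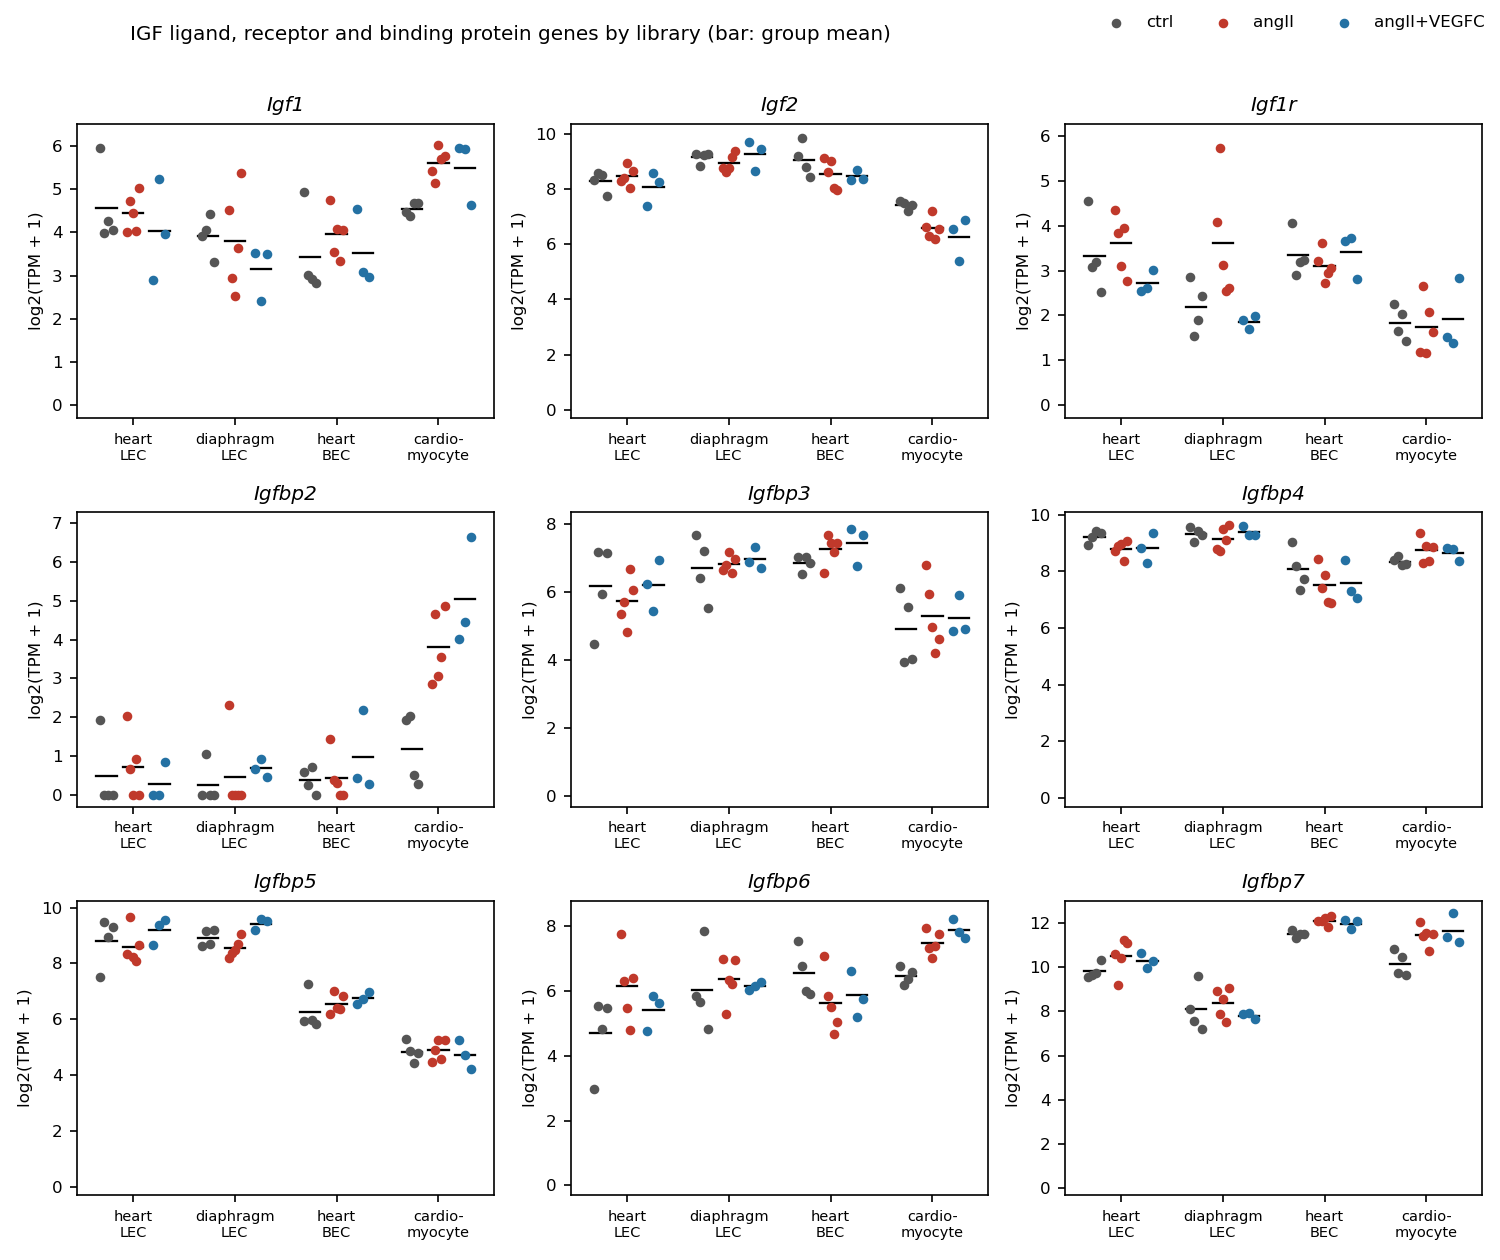
Level (y axis, log2(TPM + 1)) of the 9 genes in each library, by population (x axis) and treatment (colour), with a short line at each group mean. Igfbp5 separates both LEC populations from heart BECs and cardiomyocytes, and Igfbp2 lies near 0 in the endothelial populations.

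To ask which members differ between lymphatic and blood endothelium of the heart, heart LECs were compared with heart BECs over all treatments with limma on log2(TPM + 1), with treatment, age and batch in the fit and Benjamini-Hochberg adjustment over all genes. A gene with an adjusted p-value under 0.05 is called below. Igfbp5 and Igfbp4 were higher in heart LECs and Igfbp7 and Igfbp3 lower, which is 4 of 9 members against 23.0% of the 29402 genes tested. Igfbp5 was 2.31 ± 0.21 log2 units higher (SE, adjusted p = 3.43e-09) and higher in 12 of 12 mice, and Igfbp4 was 1.23 ± 0.19 higher (adjusted p = 1.89e-05) and higher in 11 of 12 mice. The log2 change of Igfbp7 was -1.65 ± 0.14 (adjusted p = 9.6e-10), with 12 of 12 mice lower, and that of Igfbp3 was -1.17 ± 0.22 (adjusted p = 0.000181), with 10 of 12 lower. In ctrl libraries alone Igfbp3 changed by -0.67 and was not called (adjusted p = 0.442). The members' median log2 change was -0.02 against 0.20 over all genes.

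The ligands fell on either side of the threshold in different fits. Igf1 had a log2 change of 0.71 ± 0.28 (adjusted p = 0.0645, 10 of 12 mice higher) and Igf2 one of -0.39 ± 0.15 (adjusted p = 0.0511, 10 of 12 lower), and under a replicate block for the mouse their adjusted p-values were 0.0437 and 0.0361. Igf1 was also called without mouse 1, 2 or 3 (adjusted p = 0.0453, 0.00984 and 0.0362) and Igf2 without mouse 14, 15 or 18 (adjusted p = 0.0409, 0.0432 and 0.0144). With quantile normalization limma called Igf2 as well (adjusted p = 0.03045). Igf1r, Igfbp2 and Igfbp6 had adjusted p-values of 0.931, 0.965 and 0.324, and with gene number in the fit the log2 change of Igf1r went from 0.03 to -0.47 (adjusted p = 0.107). Fibroblast markers (7 of 7 measured) summed to 745.18 to 1779.06 TPM in heart LECs and to 466.48 to 4048.09 TPM in heart BECs, where mice 1, 3 and 2 had sums of 4048.09, 2539.26 and 2710.75 TPM against at most 969.09 TPM in the other 9 libraries. The same 3 heart BEC libraries held the highest levels of Igf1 (29.4, 25.7 and 22.1 TPM, against at most 15.9 TPM) and of Igfbp4 (525, 345 and 340.3 TPM, against at most 293 TPM), and the part of fibroblast RNA in these differences was not tested.

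LECs of the diaphragm and the heart were then compared to ask how lymphatic endothelium differs between organs. Igf2 was higher in the diaphragm and Igfbp7 lower, which is 2 of 9 members against 3.18% of the 31319 genes tested. Igf2 was 0.79 ± 0.15 log2 units higher (adjusted p = 0.00187), in 10 of the 11 mice with both libraries, and Igfbp7 had a log2 change of -2.04 ± 0.24 (adjusted p = 1.29e-06), with 11 of 11 mice lower. Igf1r had a log2 change of -0.66 ± 0.28 (adjusted p = 0.277), which was -0.24 with gene number in the fit (adjusted p = 0.878) and which passed with the mouse as a replicate block (adjusted p = 0.041) or without mouse 4 (adjusted p = 0.0427). Igfbp5, at 496 and 494 TPM, differed by 0.09 ± 0.18 (adjusted p = 0.865), Igfbp4 by 0.35 ± 0.12 (adjusted p = 0.115) and Igfbp3 by 0.82 ± 0.27 (adjusted p = 0.119). Without mouse 11 Igfbp3 was called (adjusted p = 0.0146). Blood endothelial markers (4 of 4 measured), none of them at 0, summed to 1093.74 to 2021.18 TPM in heart LECs and to 374.74 to 696.89 TPM in diaphragm LECs, and their part in the difference of Igfbp7 was not tested. In ctrl libraries alone 0 members were called, with adjusted p-values of 0.062 for Igf2 and 0.0523 for Igfbp7.

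Cardiomyocytes differed from heart BECs in all 9 members, a count that includes Igfbp2. Of the 23213 genes tested 76.2% were called, and the median log2 change over all genes was -0.61. Igf1 (1.56 ± 0.24, adjusted p = 2.12e-06), Igfbp6 (1.25 ± 0.28, adjusted p = 0.000353) and Igfbp4 (0.87 ± 0.20, adjusted p = 0.000375) were higher in cardiomyocytes, as was Igfbp2 (2.69 ± 0.40). The lower members were Igfbp3 (-2.01 ± 0.27, adjusted p = 2.12e-07), Igf2 (-1.92 ± 0.17, adjusted p = 1.08e-10), Igfbp5 (-1.67 ± 0.17, adjusted p = 1.41e-09), Igf1r (-1.45 ± 0.20, adjusted p = 3.68e-07) and Igfbp7 (-0.80 ± 0.17, adjusted p = 0.000202). Igf2 and Igfbp5 were lower in 12 of 12 mice. With gene number in the fit the change of Igf1r was -0.76 (adjusted p = 0.00245). The ctrl and angII+VEGFC cardiomyocyte libraries took part in the choice of the genes through Igfbp2. Its p-value is therefore not given, and nothing is read from its call here. Fibroblast markers summed to 2412.74 to 6501.98 TPM in cardiomyocyte libraries, above the 9 heart BEC libraries that had at most 969.09 TPM. Macrophage markers summed to 646.41 to 2233.83 TPM in cardiomyocyte against 25.04 to 88.92 TPM in heart BEC libraries, and mural markers to 762.55 to 1516.16 TPM against 139.11 to 387.76 TPM. Blood endothelial markers summed to 524.22 to 951.61 TPM in cardiomyocyte against 3732.52 to 5214.11 TPM in heart BEC libraries. The part of these cells was not tested. The cell type, the way cells were isolated and the sequencing batch cannot be told apart here. In ctrl libraries alone the changes of Igfbp4 and Igfbp6 were 0.27 and -0.08 and neither was called (adjusted p = 0.299 and 0.781).

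The effect of angiotensin II was examined within each population, with all 3 groups in a fit. In cardiomyocytes, 0 of the 9 members were called by limma between angII and ctrl, where 0.0892% of the 15691 genes tested were called, and 6 of the 9 members had an unadjusted p-value under 0.05, beside 9.85% of all genes. These counts include Igfbp2, for which the ctrl libraries took part in the choice of the genes, so its p-values are not given. The members' median log2 change was 0.51 against 0.12 over all genes.

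Igf1 was at 21.1, 19.7, 24.6 and 24.5 TPM in ctrl mice 1, 5, 9 and 11 and at 41.7, 34.4, 64.2, 51.0 and 53.5 TPM in angII mice 3, 12, 14, 15 and 18. All 5 angII libraries lay above all 4 ctrl libraries, with a log2 change of 1.01 ± 0.25 and an adjusted p-value of 0.143. Igf2 was at 189, 177, 148 and 168 TPM in the same ctrl mice and at 96.4, 77.9, 146, 72.2 and 91.5 TPM in the angII mice. Here all angII libraries lay below all ctrl libraries, with mouse 14 next to the lowest ctrl library (-0.84 ± 0.28, adjusted p = 0.281). The ratio of Igf2 to Igf1 was accordingly 6.02 to 8.97 in ctrl and 1.42 to 2.31 in angII cardiomyocytes.

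Igfbp2, which binds both ligands and is widely expressed in the fetus, was at 2.83, 3.12, 0.419 and 0.215 TPM in ctrl mice 1, 5, 9 and 11. Its values in angII mice 3, 12, 14, 15 and 18 were 6.28, 24.4, 7.38, 10.7 and 27.9 TPM. The groups did not overlap, and the log2 change was 2.71 ± 0.56, a description that rests partly on ctrl values the choice of the genes used. Igfbp6 was at 109, 71.6, 80.8 and 94.2 TPM in ctrl and at 243, 161, 129, 166 and 215 TPM in angII libraries, also without overlap (1.01 ± 0.21, adjusted p = 0.0813). Igfbp7 was at 1789, 854, 1393 and 791 TPM in ctrl and at 4122, 2699, 2926, 1679 and 2851 TPM in angII libraries. Only angII mouse 15 lay within the ctrl range, and the log2 change was 1.34 ± 0.31 (adjusted p = 0.115).

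Among the other members, Igfbp4 ran from 300.2 to 369 TPM in ctrl and from 312 to 647 TPM in angII cardiomyocytes (0.45 ± 0.20, adjusted p = 0.492). Igfbp3 (14.5 to 69.0 TPM in ctrl and 17.5 to 109.7 TPM in angII), Igfbp5 (20.5 to 38.3 and 20.9 to 37.6 TPM) and Igf1r (1.67 to 3.74 and 1.22 to 5.25 TPM) had adjusted p-values of 0.807, 0.994 and 0.968. The summed level of the 6 binding protein genes was 1688 ± 510 TPM in ctrl (n = 4) and 3576 ± 1048 TPM in angII (n = 5).

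Summed markers of other cells moved with these differences. Fibroblast markers (7 of 7 measured, none at 0) summed to 2412.74 to 3496.59 TPM in ctrl, 3965.15 to 5595.43 TPM in angII and 3346.03 to 6501.98 TPM in angII+VEGFC cardiomyocyte libraries. Macrophage markers (7 of 7 measured, none at 0) summed to 646.41 to 844.23 TPM, 1043.39 to 1895.31 TPM and 1018.22 to 2233.83 TPM. The 7 fibroblast markers did not vary alike over the 12 cardiomyocyte libraries. Col1a1 ran from 58.9 to 385 TPM, Col1a2 from 127 to 928 TPM and Col3a1 from 255 to 1778 TPM. Lum ran from 185 to 522 TPM, Dcn from 1718 to 3182 TPM, Pdgfra from 14.5 to 30.9 TPM and Tcf21 from 37.6 to 62.8 TPM. The part of these cells in the differences of Igf1, Igfbp2, Igfbp6 and Igfbp7 was not tested. Without the library of angII+VEGFC mouse 8, limma called Igf1, Igfbp6 and Igfbp7 in angII against ctrl (adjusted p = 0.00865, 0.0215 and 0.0266). The same 3 members were called with only the 2 groups fitted, which also leaves out mouse 8. With mouse 8 kept, they were called with gene number as a covariate. Mouse 8 stood apart in that number (19306 genes), so this fit is not separate from leaving its library out. The 3 members were also called with 1 surrogate variable. That variable was taken from the residuals of the same fit. It left the log2 changes as they were and removed part of the spread by construction, so nothing is read from its calls. Igfbp2 passed in each of these fits too, and nothing is read from that.

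**Figure D4:**
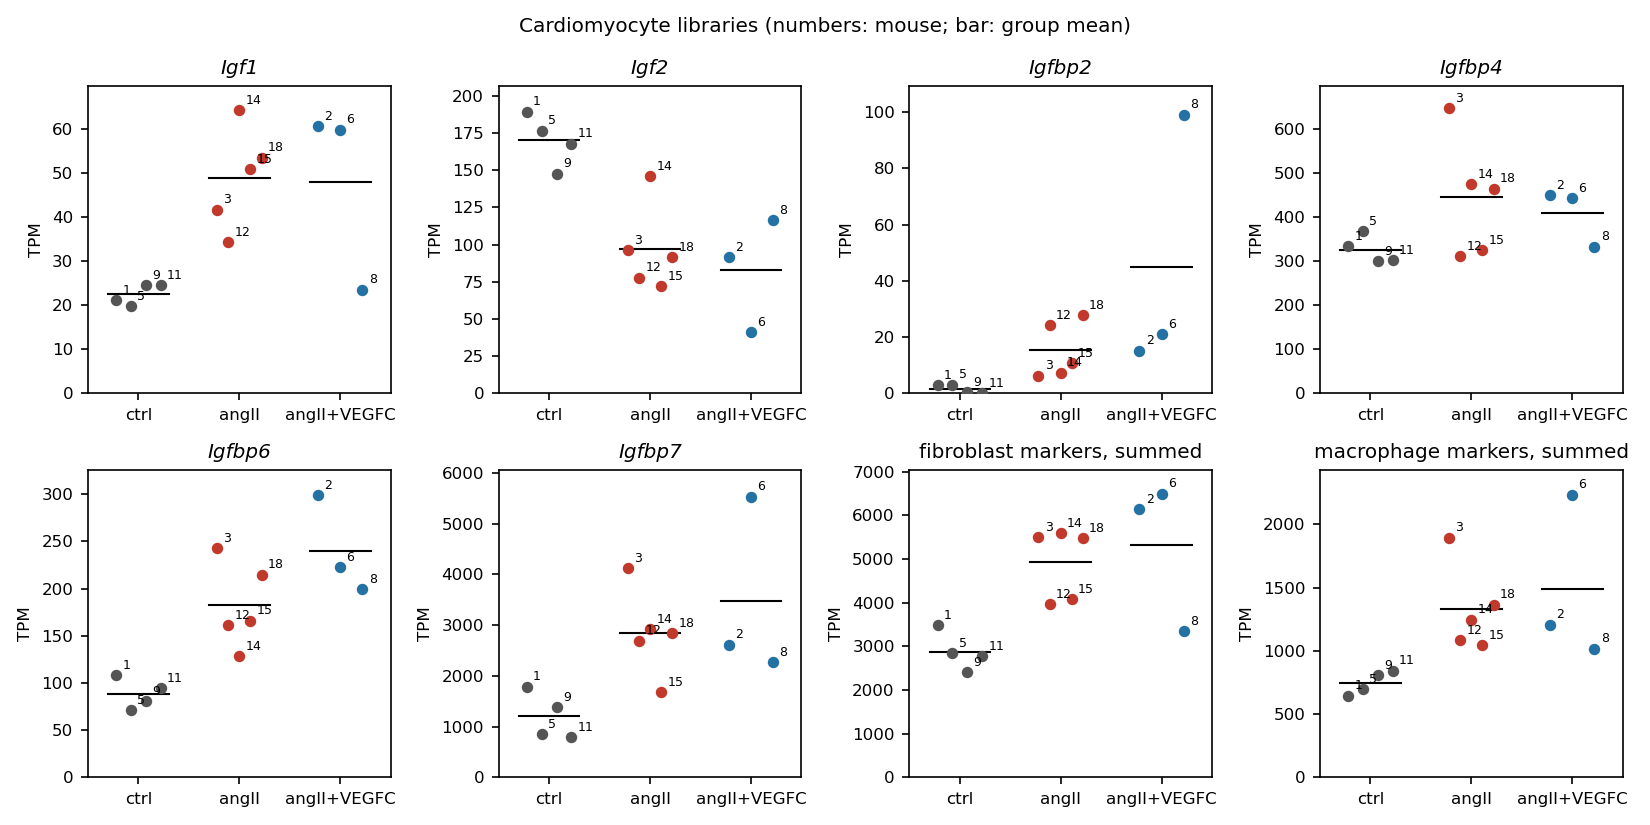
Level (y axes, TPM) of 6 members and summed level of fibroblast and macrophage markers in the 12 cardiomyocyte libraries, by treatment (x axes), with mouse numbers beside the points and a line at each group mean. Igf1, Igfbp2 and Igfbp6 of the 5 angII libraries lie above the 4 ctrl libraries and Igf2 below them, and both marker sums also lie higher in angII. The ctrl values of Igfbp2 took part in the choice of the genes.

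Adding VEGFCc156s to angiotensin II was compared with angiotensin II alone to ask what the lymphangiogenic factor changes. In cardiomyocytes 0 of 9 members were called by limma (0% of all genes), with 0 at an unadjusted p-value under 0.05, beside 2.41% of all genes. The largest log2 change was that of Igfbp2, 1.00 ± 0.64, in which the angII+VEGFC values also took part in the choice of the genes, with 15.2, 21.0 and 99.1 TPM in angII+VEGFC mice 2, 6 and 8. The library of mouse 8 alone lay above the angII range. For Igf1 the same mice had 60.6, 59.9 and 23.6 TPM and a log2 change of 0.02 ± 0.29, and for Igf2 they had 91.4, 41.3 and 116 TPM (-0.31 ± 0.32). Igfbp6 was at 299, 223 and 199 TPM (0.41 ± 0.25) and Igfbp7 at 2617, 5534 and 2265 TPM (0.06 ± 0.36).

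The contrast of angII+VEGFC with ctrl cardiomyocytes shares its ctrl libraries with that of angII, and it took part in the choice of the genes. Its values are therefore given as they stand. The log2 changes were 3.71 ± 0.64 for Igfbp2, 1.42 ± 0.25 for Igfbp6, 1.39 ± 0.36 for Igfbp7, 1.03 ± 0.29 for Igf1, -1.15 ± 0.32 for Igf2, 0.25 ± 0.23 for Igfbp4, 0.13 ± 0.58 for Igfbp3, 0.09 ± 0.43 for Igf1r and -0.06 ± 0.29 for Igfbp5.

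In heart BECs, 0 of 8 members were called by limma in angII against ctrl (0% of all genes), with 1 at an unadjusted p-value under 0.05, beside 5.40% of all genes. Igfbp2 did not pass the filter on low values in the endothelial populations. The 1 member was Igfbp7, at 3237, 2500.0, 2907 and 2897 TPM in ctrl mice 1, 5, 9 and 11 and at 4305, 4275, 4686, 3609 and 5067 TPM in angII mice 3, 12, 14, 15 and 18. All angII libraries lay above all ctrl libraries, with a log2 change of 0.58 ± 0.14 (adjusted p = 0.671) and changes of 0.53 within batch 1 and 0.67 within batch 2. Mural markers (6 of 6 measured) summed to 263.6 to 330.84 TPM in ctrl and 139.11 to 256.45 TPM in angII heart BECs, and endocardial markers (3 of 3 measured) summed to 472.00 to 854.36 TPM and 260.81 to 383.79 TPM, and the part of these cells was not tested.

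With VEGFCc156s added, heart BECs had 0 of 8 members called against angII (limma, 0% of all genes) and 0 with an unadjusted p-value under 0.05, beside 2.59% of all genes. Igfbp7 was at 4383, 3314 and 4306 TPM in angII+VEGFC mice 2, 6 and 8 (-0.08 ± 0.17 against angII). In angII+VEGFC against ctrl 0 of 8 were called (0% of all genes), and Igf2 (-0.72 ± 0.24), Igfbp3 (0.71 ± 0.23) and Igfbp7 (0.50 ± 0.17) had an unadjusted p-value under 0.05, which is 3 of 8 beside 5.51% of all genes. Igf2 was at 580.2, 912, 443 and 344 TPM in ctrl and at 322, 408 and 327 TPM in angII+VEGFC heart BECs, with overlap. Igfbp3 was at 129, 91.8, 129.6 and 113 TPM in ctrl and at 229, 108 and 203 TPM in angII+VEGFC. Its change was -0.26 within batch 1, where mouse 6 is the only angII+VEGFC library, and 1.07 within batch 2. Endocardial markers summed to 472.00 to 854.36 TPM in ctrl and 221.53 to 418.90 TPM in angII+VEGFC heart BECs, and pan-endothelial markers (4 of 4 measured) to 1717.16 to 2561.74 TPM and 2616.58 to 3015.39 TPM, and their part in these values was not tested.

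Heart LECs had 0 of 8 members called in angII against ctrl (limma, beside 0.0261% of all genes) and 3 with an unadjusted p-value under 0.05, against 10.9% of all genes. Igfbp7 was at 753, 792, 855 and 1263 TPM in ctrl mice 1, 5, 9 and 11 and at 1515, 578, 1353, 2386 and 2186 TPM in angII mice 3, 12, 14, 15 and 18. Mouse 12 was the lowest of all and the other 4 angII libraries lay above the ctrl range (0.75 ± 0.26, adjusted p = 0.334). Without mouse 12 the log2 change was 0.98 and Igfbp7 was called (adjusted p = 0.0147), the only member call that leaving out 1 heart LEC library produced in this contrast. Cardiomyocyte markers (5 of 5 measured) showed a like order, with sums of 66.32 to 135.06 TPM in ctrl, 102.44 TPM in mouse 12 and 171.10 to 520.77 TPM in the other 4 angII libraries. Blood endothelial markers were lowest in mouse 12 (1093.74 TPM) and highest in mice 14 and 15 (2021.18 and 1903.82 TPM), and the part of these cells in the Igfbp7 values was not tested.

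Igfbp6 was at 6.92, 45.1, 27.4 and 43.5 TPM in ctrl and at 214, 78.2, 43.3, 26.6 and 82.8 TPM in angII heart LECs, with a log2 change of 1.53 ± 0.56 (adjusted p = 0.353). The groups overlapped, and the change was 2.60 within batch 1 and 0.08 within batch 2. The highest library, of angII mouse 3, also had the highest summed level of mesothelial markers (5 of 5 measured), 194.51 TPM against 0.62 to 20.05 TPM in the other 11 heart LEC libraries, and of mural markers, 655.62 TPM against at most 317.97 TPM. The part of these cells in the Igfbp6 value was not tested. Igfbp4 was at 486, 589, 696 and 647 TPM in ctrl and at 419, 473, 505, 332 and 533 TPM in angII (-0.44 ± 0.21, adjusted p = 0.449), with changes of -0.32 and -0.55 within the batches.

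VEGFCc156s added to angiotensin II gave 0 of 8 calls in heart LECs (limma, 0% of all genes) and 1 unadjusted p-value under 0.05, beside 10.8% of all genes. It was that of Igf1r, at 4.85, 5.12 and 7.12 TPM in angII+VEGFC mice 2, 6 and 8 against 19.5, 13.3, 7.58, 14.5 and 5.85 TPM in the angII mice (-1.07 ± 0.50, adjusted p = 0.461). With gene number in the fit the change was 0.05. Against ctrl, 0 of 8 members were called (0% of all genes) and 0 had an unadjusted p-value under 0.05, beside 4.94% of all genes.

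In diaphragm LECs 0 of 8 members were called in each contrast by limma, where 0% of all genes were called. Unadjusted p-values under 0.05 numbered 1 of 8 for angII against ctrl (15.3% of all genes), 2 for angII+VEGFC against angII (8.78%) and 1 for angII+VEGFC against ctrl (1.32%). Igf1r was at 6.26, 1.90, 2.69 and 4.41 TPM in ctrl mice 1, 5, 9 and 11, at 15.9, 52.7, 7.66, 4.79 and 5.13 TPM in angII mice 3, 4, 14, 15 and 18 and at 2.72, 2.21 and 2.92 TPM in angII+VEGFC mice 2, 6 and 8. The angII libraries overlapped the ctrl libraries and lay above all angII+VEGFC libraries. The log2 changes were 1.36 ± 0.54 for angII against ctrl (adjusted p = 0.303) and -1.76 ± 0.62 for angII+VEGFC against angII (adjusted p = 0.567). The angII libraries also listed more genes at 1 TPM or more (20062 to 23691) than ctrl (12924 to 18116) and angII+VEGFC libraries (14963 to 18373), and with that number in the fit the changes were -0.25 and -0.39.

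Igfbp5 was the other member in diaphragm LECs. It was at 396, 567, 416 and 587 TPM in ctrl, at 295, 327, 356, 413 and 527 TPM in angII and at 578, 761 and 730.1 TPM in angII+VEGFC libraries. The 3 angII+VEGFC libraries lay above all angII libraries, with a log2 change of 0.78 ± 0.19 (adjusted p = 0.567). The change was 1.23 within batch 1, where mouse 6 is the only angII+VEGFC library, and 0.48 within batch 2. Macrophage markers (7 of 7 measured) summed to 41.00 to 63.03 TPM in angII+VEGFC and 96.38 to 353.85 TPM in angII diaphragm LECs. Of the 7, 3 averaged 1 TPM or more in angII+VEGFC and 6 in angII. Among them Mrc1 averaged 44.2 TPM over the 12 diaphragm LEC libraries against 0.75 TPM in heart BECs, so these sums need not be macrophage RNA. Pearson's r of Igfbp5 with gene number, which also separated these groups, was -0.663 over the 12 libraries. With gene number in the fit the change of Igfbp5 was 0.75, and the part of macrophages was not tested. Against ctrl the change was 0.44 ± 0.19, with an adjusted p-value of 1. Igfbp6 and Igfbp7 were highest in ctrl mouse 9, at 228 and 775 TPM, where the other ctrl libraries had 27.7 to 56.0 TPM and 147 to 272 TPM. That library also had the highest mural (471.96 TPM) and mesothelial (127.08 TPM) marker sums of the diaphragm LECs and the highest fibroblast sum but one (1060.44 TPM), and the part of these cells was not tested.

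**Figure D5:**
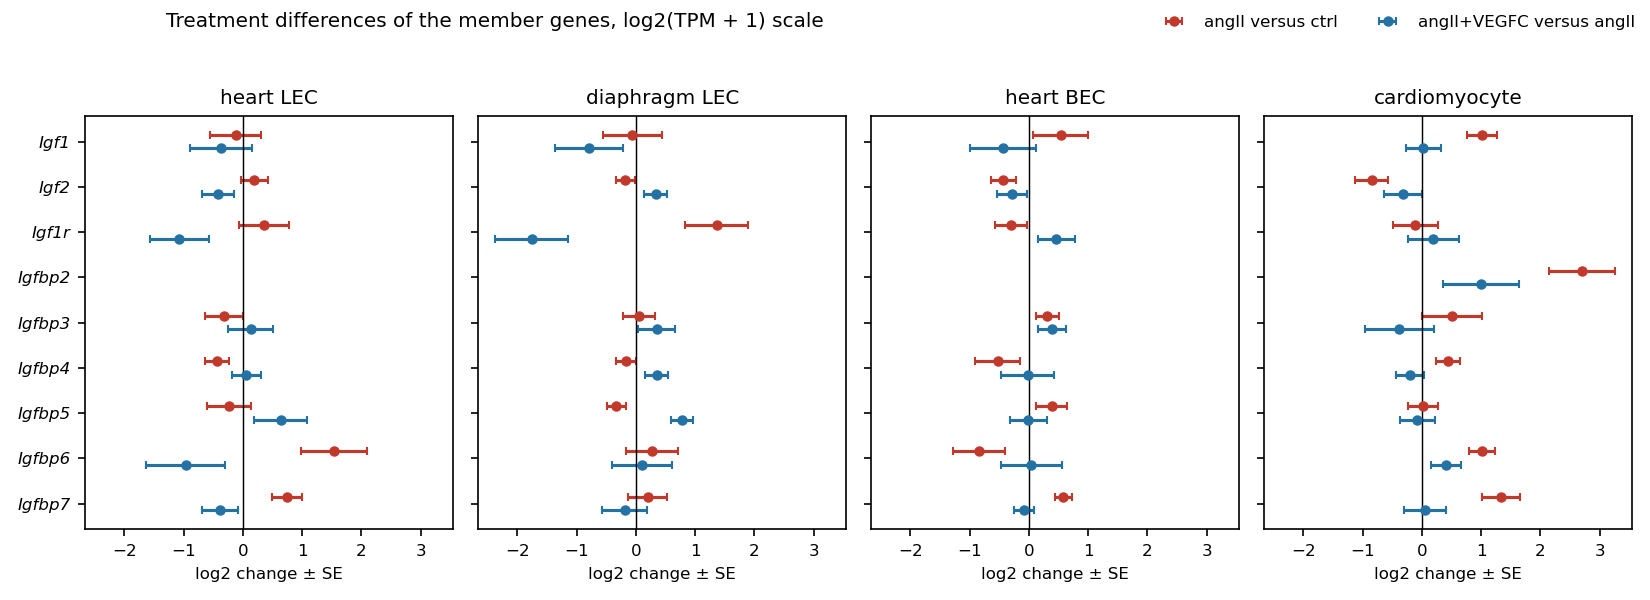
Log2 change (x axis, on the log2(TPM + 1) scale) of each member (y axis) in angII against ctrl (red) and angII+VEGFC against angII (blue) in the 4 populations, with bars of 1 SE from limma. Igfbp2 is missing in the endothelial panels because it did not pass the filter, and no member was called in any of these contrasts. The largest change is that of Igfbp2 in cardiomyocytes (2.71 ± 0.56), whose ctrl values took part in the choice of the genes.

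Whether the treatment differences varied between endothelial populations was tested by the interaction of population and treatment in 1 fit of the 36 endothelial libraries, which kept Igfbp2. For angII against ctrl, limma called 0 of 9 members for heart LECs against heart BECs (0% of all genes), diaphragm LECs against heart BECs (0%) and heart against diaphragm LECs (0.00611%). Unadjusted p-values under 0.05 were 1 (Igfbp6, 2.36 ± 0.79, beside 7.19% of all genes), 1 (Igf1r, 1.59 ± 0.59, beside 11.0%) and 0 (beside 9.70%). For angII+VEGFC against angII, 0 of 9 were called in each (0% of all genes), with 0, 1 (Igf1r, -1.97 ± 0.64) and 0 unadjusted, beside 6.43%, 7.00% and 4.88% of all genes. With gene number in the fit these values of Igf1r were 0.35 and -0.89 (adjusted p = 1 for both). No treatment difference of a member was therefore shown to be particular to an endothelial population.

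Age was a covariate of these fits, and limma called 0 members and 0% of all genes for it in each of the 4 populations. Unadjusted p-values under 0.05 were 2 of 8 in heart BECs (3.52% of all genes), 1 of 8 in diaphragm LECs (2.08%), 0 of 8 in heart LECs (6.92%) and 0 of 9 in cardiomyocytes (1.94%). They were those of Igfbp4 in diaphragm LECs (0.06 log2 units per month of labelled age) and of Igf2 (-0.08) and Igfbp3 (0.07) in heart BECs.

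A list of 34 other genes of the pathway was examined in the same fits. No gene of the list was called by limma in any treatment contrast or for age, with 0 to 9 at an unadjusted p-value under 0.05 in a contrast, the 9 being of 30 tested in angII against ctrl of heart LECs, where 10.9% of all genes had one. Of the receptors outside the members, Igf2r, which takes up IGF2 for degradation, averaged 24.7 TPM in heart BECs, 11.8 TPM in heart LECs, 10.6 TPM in diaphragm LECs and 6.88 TPM in cardiomyocytes, and the insulin receptor gene Insr averaged 24.9, 16.7, 9.97 and 7.73 TPM. In heart LECs against heart BECs 3 of 30 genes were higher and 10 lower, beside 23.0% of all genes called (median -0.16 against 0.20 over all genes). The receptors Igf2r (-1.05 ± 0.16, adjusted p = 1.78e-05) and Insr (-0.74 ± 0.25, adjusted p = 0.0307) were lower in heart LECs, as was the PI3K subunit gene Pik3cb (-2.11 ± 0.20). The adaptor gene Shc1 was higher in heart LECs, with a log2 change of 1.76 ± 0.12 (adjusted p = 9.09e-12).

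Genes that act on binding proteins also differed between populations. Pappa, which encodes the protease that cleaves IGFBP4, averaged 0.393 TPM in heart BECs against 1.63 TPM for heart LECs (0.82 ± 0.21, adjusted p = 0.00575). Both levels are low, with overlapping ranges of 0.148 to 0.698 TPM and 0.067 to 3.63 TPM, and their precision is unknown. The secreted protease genes Htra1 (-2.21 ± 0.23) and Htra3 (-1.59 ± 0.50) were lower in heart LECs. Between LECs of the diaphragm and the heart 2 of 30 genes were higher and 1 lower, beside 3.18% of all genes called. Stc1, which encodes an inhibitor of the protease encoded by Pappa, averaged 155 TPM in diaphragm and 55.9 TPM in heart LECs (1.24 ± 0.25, adjusted p = 0.00314). Shc1 was also higher (0.62 ± 0.12), and H19 was lower (-1.10 ± 0.22). H19 and its neighbour Igf2 thus differed in opposite directions between the lymphatic populations. In cardiomyocytes against heart BECs 5 of 27 genes were higher and 18 lower, beside 76.2% of all genes called (median -0.71 against -0.61 over all genes). Grb14 (3.23 ± 0.16) and Htra3 (2.11 ± 0.38) were the farthest above and Stc1 (-2.69 ± 0.19) and H19 (-2.31 ± 0.21) the farthest below. Htra3 was uneven in heart BECs, with a mean of 109 TPM, a median of 39.9 TPM and a highest library at 435 TPM. It averaged 280 TPM in cardiomyocytes, and the part of fibroblast RNA in the Htra3 differences of both comparisons was not tested.

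The genes most like each member were listed by Pearson's r of log2(TPM + 1) over the 48 libraries, among 21568 genes. The libraries share populations, mice and batches, so r is a description and mostly reflects differences between populations. Igfbp5 had the closest companions, Itgb4 (0.978), Sned1 (0.974) and Wbp1l (0.972), followed by Igfbp7 with Sparc (0.943), Rcn1 (0.932) and Cd34 (0.929). Igf1r was most like Gm43343 (0.92), Slc10a1 (0.892) and Slc38a9 (0.886), and Igfbp4 like Cd63 (0.907), Prelp and Rcn3 (both 0.896). Igfbp3 was most like Nckap1 and Rac1 (both 0.89) and Ccm2l (0.883), and Igf2 like Cavin2 (0.873), Utrn and Rab14 (both 0.859). The 3 members that were highest in cardiomyocytes had weaker companions. Igfbp2 was most like the macrophage gene Trem2 (0.839), Clec4b1 (0.818) and Fcrls (0.817), Igfbp6 like Tmem119 (0.823), Mmp23 (0.819) and Sod3 (0.813), and Igf1 like Srpx2 (0.758), Timp1 (0.75) and Epdr1 (0.745).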

How the data were processed

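RNA-seq of 48 libraries from 13 Prox1-eGFP mice was analysed, in 4 populations and 3 treatment groups named in the labels. The authors deposited 1 matrix of TPM values, which are scaled for gene length and library, made by alignment to GRCm38 with STAR 2.5.3a and quantification of Ensembl release 95 genes with Salmon 0.12.0, as the study's methods and the submitters' processing notes give them. TPM keeps no read counts, so the depth of the libraries (total 997657 to 999929 TPM each) is unknown and no counting interval or floor was given. Reads from opposite strands are not separated by the library kit. Columns matching no sample numbered 0. The highest correlation between libraries was 0.986, and no library was a copy of another. Ages follow the labels, which give months. The paper's methods give a range in weeks for these mice, so the sources disagree and the true ages are unsettled.

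Values were transformed to log2(TPM + 1), and a change on this scale understates that of low genes. Genes that reached 1 TPM in 3 or more libraries of a fit were tested with limma 3.58.1 (trend, R 4.3.3), with p-values adjusted by Benjamini-Hochberg over all genes and a threshold of 0.05. Treatment was tested within each population with all 3 groups in a fit, with age and batch as covariates (age only for cardiomyocytes). Populations were compared with treatment, age and batch as covariates (treatment and age for cardiomyocytes). Count tests were not used. The planned test of members in angII+VEGFC against ctrl cardiomyocytes was dropped, since that contrast was behind the choice of Igfbp2. The mouse number marks the same animal, so it pairs libraries of different populations. Deviations from the group means correlated within a mouse with medians of -0.007 to 0.105 over 6 pairs of populations. Treatment groups hold different mice and have no pairs.

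The members and the lists of pathway and marker genes were chosen with earlier results of these data known. All members are named, pathway genes where they passed a test or were highest in their list, and for each member the 3 genes with the highest Pearson's r among genes that reached 1 TPM in 12 or more libraries. The alternatives were a pseudocount of 0.1 TPM, no filter, no covariates, 1 surrogate variable, quantile normalization, gene number as a covariate, only the 2 groups compared, ctrl libraries only, the replicate block and each library left out. The code was checked on simulated data. Figures were drawn with matplotlib 3.10.9 in Python 3.11.15.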

Additional observations from a re-analysis of the deposited data

Results flagged for a closer look

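In 8 of 72 groups of 4 or 5 libraries, 1 library stood apart from the rest by Dixon's test on log2(TPM + 1), where chance flags about 1 in 20 groups. In 3 of the 8, all of Igfbp2, the rest of the group was at 0, so that any value above 0 stands apart, and these add nothing to the count. Igf1 was at 60.6 TPM in heart LECs of ctrl mouse 1, with 14.8 to 18.1 TPM in the other ctrl libraries, and at 29.4 TPM in heart BECs of the same mouse, with 6.13 to 7.05 TPM in the others. Fibroblast markers summed to 4048.09 TPM in that heart BEC library. Igf2 was at 449.9 TPM in diaphragm LECs of ctrl mouse 5, with 600.2 to 618 TPM in the others. Igfbp5 was at 153 TPM in heart BECs of ctrl mouse 5, with 56.3 to 61.5 TPM in the others.

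The other 4 were groups in which Igfbp2 was at or close to 0. Igfbp2 was at 2.825 TPM in heart LECs of ctrl mouse 1, at 1.07 TPM in diaphragm LECs of ctrl mouse 5 and at 4.01 TPM in diaphragm LECs of angII mouse 3, each against 0 in the rest of its group. In heart BECs of angII mouse 3 it was at 1.72 TPM, against 0 to 0.309 TPM. No treatment difference of a member differed between endothelial populations past the threshold of the interaction test.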

How the results depend on the processing

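Of the members' log2 changes under all alternatives, 3433 kept their direction and side of the threshold (or, with no test, moved by less than their SE), 263 changed sign without a call or moved further, 29 passed the threshold where they had not, 4 lost it and 1 reversed, Igfbp6 in cardiomyocytes against heart BECs, at -0.084 in ctrl libraries only (adjusted p = 0.781). In angII against ctrl of cardiomyocytes the count of members called, 0, became 4 with 1 surrogate variable, with the number of genes as a covariate or with only the 2 groups compared, and was 0 to 4 with 1 library left out. These counts include Igfbp2, and nothing is read from those with the surrogate variable, which removes part of the spread by construction. The library of angII+VEGFC mouse 8 stood apart in gene number and is dropped with only the 2 groups compared. Those fits are therefore not separate from leaving mouse 8 out. In angII against ctrl of heart LECs it was 0 to 1 with 1 library left out. Between populations, the count of 2 in diaphragm against heart LECs became 0 in ctrl libraries only and was 2 to 3 with 1 mouse left out, and the count of 4 in heart LECs against heart BECs was 4 to 5. In ctrl libraries only, Igfbp3 was not called in heart LECs against heart BECs (adjusted p = 0.442). Fitting the mouse as a replicate block gave 6 members called in heart LECs against heart BECs, 3 in diaphragm against heart LECs and 9 in cardiomyocytes against heart BECs, and it changed no call other than those of Igf1, Igf2 and Igf1r given above.

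Counts over all genes also moved. In angII against ctrl of cardiomyocytes the 14 called genes became 0 with no filter, 273 with 1 surrogate variable, 37 with quantile normalization, 473 with the number of genes as a covariate and 245 with only the 2 groups compared, and 0 to 314 with 1 library left out. In angII+VEGFC against ctrl of cardiomyocytes, where members were not tested, the 104 became 0, 524, 326, 769 and 30 under the same alternatives, and 0 to 852 with 1 library left out. In angII against ctrl of heart LECs the 7 became 0 with a pseudocount of 0.1 TPM, no filter, quantile normalization or only the 2 groups compared, and 2 with the number of genes as a covariate. In diaphragm LECs 0 became 520 with 1 surrogate variable. That variable is taken from the residuals of the same fit and removes part of the spread by construction, so nothing is read from its counts. In ctrl libraries only, 6764 became 1798 in heart LECs against heart BECs and 995 became 165 in diaphragm against heart LECs. The cause of these moves was not tested. The depth is unknown, and with it the precision of low values such as those of Igfbp2 in endothelial cells.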

Other observations

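Within the 3 treatment groups of cardiomyocytes, the ratio of Igf2 to Igf1 had medians of 7.90 in ctrl, 2.26 in angII and 1.51 in angII+VEGFC libraries. The last group ran from 0.69 in mouse 6 to 4.93 in mouse 8. In the endothelial populations the ratio was 5.22 or higher in every library and reached 129.35 in a ctrl heart BEC library. Of the remaining ligand, receptor and binding protein genes, Igfbp1, the binding protein best known from liver, averaged at most 0.222 TPM in a population, and the insulin receptor-related gene Insrr averaged at most 0.114 TPM.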
